A study of Mus musculus with 21 samples.

Results

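The Oct4 promoter libraries of mouse embryonic stem (ES) cells are 2 of the 21 libraries of a study that mapped DNA contacts by circular chromosome conformation capture with sequencing (4C-seq). They were chosen by their labels, which give the same viewpoint and cells and different first enzymes. One library was cut first with NlaIII and then with Csp6I, the other first with DpnII and then with Csp6I. Both came from the IB10/E14 line of ES cells, grown with serum, leukemia inhibitory factor and medium conditioned by buffalo rat liver cells. Both were fixed with 2% formaldehyde for 10 minutes. IB10/E14 is an established line, so it stands for cultured ES cells and not for an embryo. The labels do not say whether both libraries came from 1 culture. Each enzyme pair had 1 library, so there is no spread between replicates, and the comparisons carry neither a test nor a p-value. The cell identity could not be checked against marker genes, because DNA contacts and not RNA were measured.

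Oct4 is the protein of the gene Pou5f1, a POU-domain transcription factor that keeps ES cells pluripotent together with Sox2 and Nanog. Its known proximal and distal enhancers lie close upstream of the promoter. In 4C-seq, fixed chromatin is cut and ligated, so that fragments that lay near each other in the nucleus are joined, and the partners of 1 chosen fragment, the viewpoint, are amplified and sequenced. A contact can be read only at the ends of fragments that the enzymes release. Repeating a viewpoint with another first enzyme reads the same chromatin through another set of fragments. NlaIII cuts at CATG, DpnII at GATC and Csp6I at GTAC, all palindromes, so that both strands read alike.

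The promoter windows of Pou5f1 show how unevenly such sites fall, and are printed here because the viewpoint is this promoter. RefSeq has 2 entries for Pou5f1 in the table used (GRCm38.p6, both on the plus strand), each from 250 bases before to 50 after a gene start. They are given 5′ to 3′ with the sites of the 3 enzymes in capitals, the first entry at chr17:35505782-35506081 and the second at chr17:35508557-35508856:
Pou5f1 entry 1: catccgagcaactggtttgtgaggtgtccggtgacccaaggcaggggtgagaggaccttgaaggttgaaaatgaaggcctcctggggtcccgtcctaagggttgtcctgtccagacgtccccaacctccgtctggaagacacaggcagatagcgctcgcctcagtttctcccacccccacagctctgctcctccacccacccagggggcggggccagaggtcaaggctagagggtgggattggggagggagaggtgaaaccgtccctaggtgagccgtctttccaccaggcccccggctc
Pou5f1 entry 2: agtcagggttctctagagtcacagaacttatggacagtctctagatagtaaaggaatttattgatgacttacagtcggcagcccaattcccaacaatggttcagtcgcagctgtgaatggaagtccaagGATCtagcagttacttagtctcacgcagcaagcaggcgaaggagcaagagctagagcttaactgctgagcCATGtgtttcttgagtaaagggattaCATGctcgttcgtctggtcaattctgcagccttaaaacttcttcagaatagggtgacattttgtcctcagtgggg
Entry 1 holds none of the 3 sites. Entry 2 holds 2 NlaIII sites, 1 DpnII site and 0 Csp6I sites. Of all 32851 promoter windows in the table, 61.1% hold CATG, 47.97% GATC and 35.8% GTAC, and 14.5% hold none of the 3. CATG occurs 1.05 times per window on average and GATC 0.666 times. The window of Tcf19, the next gene on the higher-coordinate side, holds none of the sites, and that of H2-Q10, the next on the lower side, holds 2 NlaIII sites and 1 DpnII site. These counts are a description of the letters in those windows. The captured fragments themselves were not analysed here.

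The profiles cover chromosome 17 from 35.4 to 35.8 Mb (mm9) in steps of 1 kb. Going by the order of protein-coding genes in the same RefSeq assembly, the lower-coordinate side of Pou5f1 holds H2-Q10, H2-Q7, H2-Q6, H2-Q4, H2-Q2 and H2-Q1. These are class I genes of the major histocompatibility complex, related copies of one another. The higher-coordinate side begins with Tcf19, a nuclear factor linked to the cell cycle, followed by Cchcr1, Psors1c2 and Cdsn, the last encoding the skin adhesion protein corneodesmosin. No mm9 annotation was used, so no gene is assigned to a position below. Positions are given as distances from the viewpoint, with negative values on the lower-coordinate side, which by the plus strand of Pou5f1 in RefSeq is the upstream side of the gene.

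The viewpoint was placed at 35644250, the midpoint of the highest signals of both libraries in the 5 kb smoothing window. The NlaIII/Csp6I library was highest 1.25 kb above it, at a signal of 0.944, and the DpnII/Csp6I library 1.25 kb below it, at 1.12. Signals are the authors' normalized, smoothed medians, which lie near 1 close to the viewpoint. For the comparison, bins of 5 kb were averaged, bins whose centres lay within 10 kb of the viewpoint were omitted, and each library was divided by its mean over the remaining 74 bins. This quotient is called relative signal, and a value of 1 is the library's own mean.

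Sequencing depth is unknown, and both profiles were coarse. In the 5 kb window, 3 values (0.0225, 0.0117 and 0) made up 82.7% of the 376 positions beyond 10 kb in the NlaIII/Csp6I library, and 3 (0.0210, 0.0125 and 0) made up 71.3% in the DpnII/Csp6I library. Among the 21 libraries of the series these shares ranked 1 and 3, against a range of 5.07% to 82.7%. The 2 non-zero values correspond to relative signals of 0.746 and 0.387 in the NlaIII/Csp6I library, and 0.649 and 0.387 in the DpnII/Csp6I library. Positions at these levels have no order among themselves.

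The contact that stood out with both enzyme pairs was a peak between about -26 and -15 kb. In the bin centred at -21.75 kb the relative signal was 8.68 with NlaIII/Csp6I and 12.2 with DpnII/Csp6I. In the next bin inward, at -16.75 kb, it was 12.9 with NlaIII/Csp6I and 4.77 with DpnII/Csp6I. The bin on the outer side, at -26.75 kb, had 3.41 with NlaIII/Csp6I and 4.03 with DpnII/Csp6I. Further out, at -31.75 kb, NlaIII/Csp6I was at 0.739, below its mean, and DpnII/Csp6I at 1.34. These 2 libraries thus placed the highest bin beyond 10 kb on the same side and 5 kb apart.

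**Figure D1:**
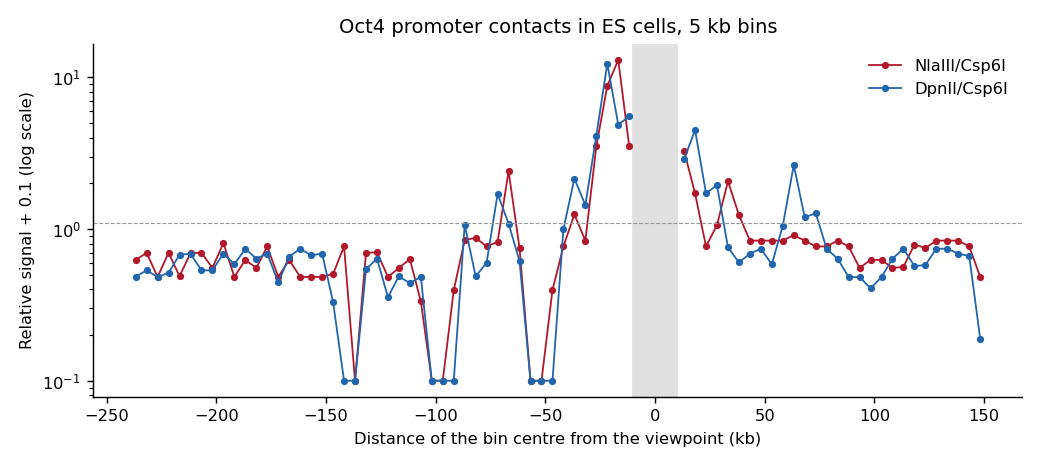
Relative signal plus 0.1 on a log axis (y) by distance of each 5 kb bin from the viewpoint in kb (x), 1 point per bin, for the NlaIII/Csp6I library and the DpnII/Csp6I library. The dashed line marks the library mean, the grey band the bins left out, and points at the bottom are bins listed at 0. Both profiles peak between -26 and -15 kb and lie below the mean in all bins beyond 100 kb.

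Position by position, the peak was highest in its inner part with NlaIII/Csp6I and at its outer edge with DpnII/Csp6I. With NlaIII/Csp6I the signal was 0.342 from -25.25 to -22.25 kb, dipped to 0.148 from -21.25 to -19.25 kb and reached 0.546 from -18.25 to -16.25 kb. With DpnII/Csp6I it reached 0.646 at -25.25 kb, was still 0.461 at -22.25 kb and dropped to 0.193 one step further in, at -21.25 kb. It then had a smaller rise to 0.311 at -20.25 kb, lay at 0.151 to 0.175 from -19.25 to -16.25 kb, and was 0.270 at -13.25 kb. The bands between the deposited lower and higher values overlapped at both highest points. At -17.25 kb the band ran from 0.0931 to 2.30 with NlaIII/Csp6I and from 0.0936 to 0.564 with DpnII/Csp6I. At -25.25 kb it ran from 1.45e-05 to 0.809 with NlaIII/Csp6I and from 0.151 to 1.00 with DpnII/Csp6I.

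In the 5 kb window the outer edge of the peak lay at nearly the same place with both enzyme pairs. The first position above 3 times the library's mean, going inward from -33 kb, was -26.25 kb with NlaIII/Csp6I and -25.25 kb with DpnII/Csp6I. Directly outside, both libraries were listed at 0 at -28.25 and -27.25 kb. This closeness depended on the smoothing window. The edges lay within 1 kb of each other in 17 of the 48 windows, and in the others the positions found lay up to 9 kb apart. At 2 kb the position found was -24.25 kb with NlaIII/Csp6I and -32.25 kb with DpnII/Csp6I. At 30 kb it was -23.25 kb with NlaIII/Csp6I and -32.25 kb with DpnII/Csp6I. The first position searched was -32.25 kb, so an edge given there may lie further out. The gaps in such windows are therefore not measured distances between edges.

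The highest position on this side also moved with the window. Over all 48 windows the highest position between 10 and 40 kb on the lower-coordinate side was nearer the viewpoint with NlaIII/Csp6I in 31, nearer with DpnII/Csp6I in 10 and at the same place in 7. In the 9 windows of 2 to 10 kb, a range picked after the values were seen, it was nearer with NlaIII/Csp6I in all 9, by 4 to 9.5 kb. In some wider windows it was the first position searched, at -10.25 kb, as with both libraries at 30 kb. That position lies outside the peak, so the count over all windows is not one of the peak's summit.

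**Figure D2:**
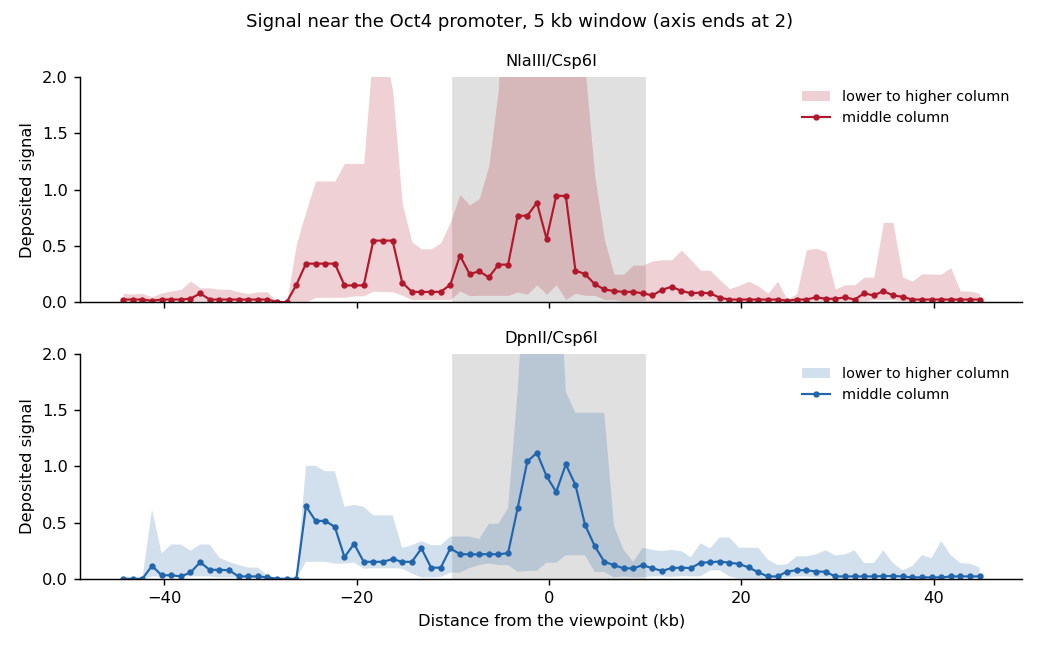
Deposited signal (y, ends at 2) by distance from the viewpoint in kb (x), 5 kb window, NlaIII/Csp6I above and DpnII/Csp6I below. The line with points is the middle column, the shaded band runs from the lower to the higher column, and the grey zone was left out of comparisons. At this window the outer edge lies at -26.25 kb with NlaIII/Csp6I and -25.25 kb with DpnII/Csp6I. The NlaIII/Csp6I library is highest at -18.25 to -16.25 kb (0.546) and the DpnII/Csp6I library at -25.25 kb (0.646).

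Across all bins the NlaIII/Csp6I over DpnII/Csp6I ratio differed by more than 2-fold in 12 of 74 bins (16.2%), after 0.1 was added to both relative signals. NlaIII/Csp6I was higher in 8 (10.8%) and lower in 4 (5.41%). Which direction had more bins depended on the settings, and with the 10 kb window NlaIII/Csp6I was higher in 4 and lower in 7. In 3 of the 8, DpnII/Csp6I was listed at 0, so no fold is given for them. They lay at -141.75, -91.75 and -46.75 kb, where NlaIII/Csp6I had relative signals of 0.668, 0.295 and 0.295, all below its mean. In 5 bins both libraries were at 0. Without the 8 bins that were empty in either library, 9 of 66 differed by more than 2-fold, or 13.6%.

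Of the 7 bins above the mean in both libraries, 2 differed by more than 2-fold, and NlaIII/Csp6I was lower in 5 and higher in 2. A further 3 bins were above the mean with NlaIII/Csp6I only and 7 with DpnII/Csp6I only. Their direction follows from how they were picked, so they are given as a description: 3 of the 3 and 3 of the 7 were past 2-fold. Of the 57 bins at or below the mean in both, 4 were (7.02%), 3 of them with DpnII/Csp6I at 0. Most positions hold the recurring values given above, and their part in the closeness of weak bins was not tested.

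On the higher-coordinate side DpnII/Csp6I was higher at 18.25 and 23.25 kb and NlaIII/Csp6I at 33.25 and 38.25 kb. At 13.25 kb the libraries were close, with relative signals of 3.17 for NlaIII/Csp6I and 2.77 for DpnII/Csp6I. At 18.25 kb NlaIII/Csp6I had 1.62 and DpnII/Csp6I 4.40, a log2 ratio of -1.39. At 23.25 kb NlaIII/Csp6I had 0.668 and DpnII/Csp6I 1.62, with a log2 ratio of -1.16. At 33.25 kb NlaIII/Csp6I had 1.97 and DpnII/Csp6I 0.658, a log2 ratio of 1.45, and at 38.25 kb the log2 ratio was 1.04. Within 50 kb on this side, 4 of 8 bins were past 2-fold, 2 in each direction.

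Outward of the peak on the lower-coordinate side, the bin at -36.75 kb was above the mean in both libraries, at 1.15 with NlaIII/Csp6I and 2.05 with DpnII/Csp6I. Further out, neighbouring bins differed in opposite directions. At -66.75 kb NlaIII/Csp6I had a relative signal of 2.31 and DpnII/Csp6I 0.986, a log2 ratio of 1.15. One bin further out, at -71.75 kb, NlaIII/Csp6I had 0.724 and DpnII/Csp6I 1.60, a log2 ratio of -1.05. On the higher-coordinate side DpnII/Csp6I had a contact at 63.25 kb with a relative signal of 2.54, where NlaIII/Csp6I had 0.811, a log2 ratio of -1.54. The last bin past 2-fold was at 148.25 kb, where the relative signals were 0.383 with NlaIII/Csp6I and 0.0892 with DpnII/Csp6I, both below the mean.

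**Figure D3:**
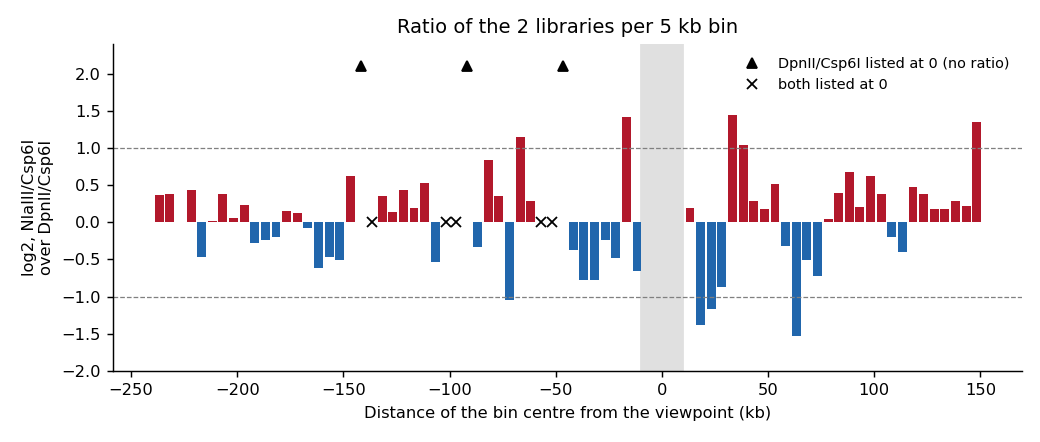
Log2 ratio of NlaIII/Csp6I over DpnII/Csp6I relative signal (y) per 5 kb bin by distance from the viewpoint in kb (x). Bars above 0 are bins higher with NlaIII/Csp6I, dashed lines mark 2-fold, triangles mark the 3 bins where DpnII/Csp6I was at 0 and crosses the 5 where both were. The longest bars lie within 80 kb of the viewpoint, apart from that at 148.25 kb.

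The ratio varied more among bins near the viewpoint than among bins far from it. With both sides pooled, the ranks of the bins were closer near it. The SD over bins of the log2 ratio was 1.01 from 10 to 50 kb (16 bins), 0.78 from 50 to 100 kb (20 bins) and 0.60 beyond 100 kb (38 bins). The near bins held 57.1% of the signal with NlaIII/Csp6I and 59.1% with DpnII/Csp6I. Beyond 100 kb the highest bin had a relative signal of 0.739 with NlaIII/Csp6I and 0.641 with DpnII/Csp6I, so no bin there reached the mean. Spearman's rho over bins, a description since bins share the decay with distance, was 0.75 over all 74 bins. It was 0.78 over the 16 bins from 10 to 50 kb, 0.75 over the 20 from 50 to 100 kb and 0.41 over the 38 beyond 100 kb. At the same distances rho was 0.88, 0.79 and 0.27 on the lower-coordinate side. On the higher-coordinate side it was 0.40, 0.66 and 0.57, so the closer ranks near the viewpoint were seen on the lower-coordinate side only. The SD over all bins was 0.75 and the median log2 ratio 0.15. For comparison, 2 fetal liver libraries with the Hba-a1 promoter as viewpoint and 1 enzyme pair, made from the full amount of template and from 1/16 of it, had an SD of 0.84 over 64 bins. Their median log2 ratio, full amount over 1/16, was -1.40, and 45 bins (70.3%) were past 2-fold, 44 of them lower with the full amount. Spearman's rho over their bins was 0.85, against 0.75 over the 74 bins of the Oct4 promoter. The Hba-a1 pair differs in viewpoint and tissue, and no test of the difference was possible.

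Maxima of observed over expected signal (O/E) were also compared. Expected signal was a decay with distance that never increases, fitted to each library over both sides. At most 5 maxima above 1 were taken per library, the highest first, and both libraries reached that number. Of these 5, 3 in each library had a partner among the 5 of the other within 10 kb, a count that depends on where the list ends. The strongest shared pair was -21.25 kb with NlaIII/Csp6I (O/E 2.23) and -25.25 kb with DpnII/Csp6I (2.05). The second was -68.25 kb with NlaIII/Csp6I (2.15) and -72.25 kb with DpnII/Csp6I (1.59). The third pair, at 129.75 kb with NlaIII/Csp6I and 130.75 kb with DpnII/Csp6I, had O/E of 1.45 in both.

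Not all maxima rest on a local rise. The NlaIII/Csp6I maximum at -21.25 kb lay in the dip within the peak, at a signal of 0.148, as O/E averages over 5 kb to either side. At 3 of the 5 in each library, among them both members of the third pair and the DpnII/Csp6I maximum at -72.25 kb, the signal equalled the library's commonest value. The maxima of NlaIII/Csp6I with no partner among these lay at 37.75 kb (O/E 1.46, against 0.586 with DpnII/Csp6I) and -236.25 kb (1.21, against 1.04 with DpnII/Csp6I). Those of DpnII/Csp6I lay at 61.75 kb, where O/E was 1.08 with NlaIII/Csp6I and 2.23 with DpnII/Csp6I, and at -161.25 kb, where it was 0.949 with NlaIII/Csp6I and 1.39 with DpnII/Csp6I.

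Empty stretches were shared and lay on the lower-coordinate side alone in both libraries, in the 5 kb window. NlaIII/Csp6I had 39 empty positions and DpnII/Csp6I 64, and 36 were empty in both. These were 92.3% of the NlaIII/Csp6I and 56.25% of the DpnII/Csp6I empty positions. They formed 4 stretches, at -139.25 to -135.25 kb, -106.25 to -92.25 kb, -60.25 to -47.25 kb and -28.25 to -27.25 kb. The DpnII/Csp6I library had 3 further stretches, the longest of 6 positions from -117.25 to -112.25 kb. The order of genes puts the H2-Q copies on this side, and their part in the empty stretches was not tested.

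The deposited lower and higher values allow a second reading of the differences. After scaling, the bands of both libraries lay apart at 32 of 376 positions (8.51%), with NlaIII/Csp6I above at 29 (7.71%) and DpnII/Csp6I above at 3 (0.798%). At 26 of the 29 DpnII/Csp6I was listed at 0 in all 3 columns, and at the 3 positions with DpnII/Csp6I above, NlaIII/Csp6I was listed at 0. The remaining 3 positions, from 150.75 to 152.75 kb, had an NlaIII/Csp6I lower value of 0.387 times the mean and a DpnII/Csp6I higher value that was also 0.387 at this precision. Within 40 kb of the viewpoint the bands lay apart at 1 position, at -26.25 kb, where DpnII/Csp6I was at 0, so they overlapped throughout the bins past 2-fold there.

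Wider smoothing brought the libraries together in size but not in rank. On the 66 bins filled in every window, the SD of the log2 ratio was 1.14 at 2 kb, 0.76 at 5 kb, 0.80 at 10 kb, 0.62 at 20 kb and, in the widest window of 49 kb, 0.50. The number of bins past 2-fold ran from 16 at 3 kb to 4 at 46 kb. Spearman's rho was highest at 5 kb, at 0.75, and lowest at 12 kb, at 0.57. Empty positions beyond 10 kb made up 18.7% with NlaIII/Csp6I and 44.3% with DpnII/Csp6I at 2 kb, and 10.4% with NlaIII/Csp6I and 17.02% with DpnII/Csp6I at 5 kb. They were gone from 21 kb on with NlaIII/Csp6I and from 24 kb on with DpnII/Csp6I. Bands lay apart at 30.9% of positions at 2 kb and at none from 24 kb on.

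**Figure D4:**
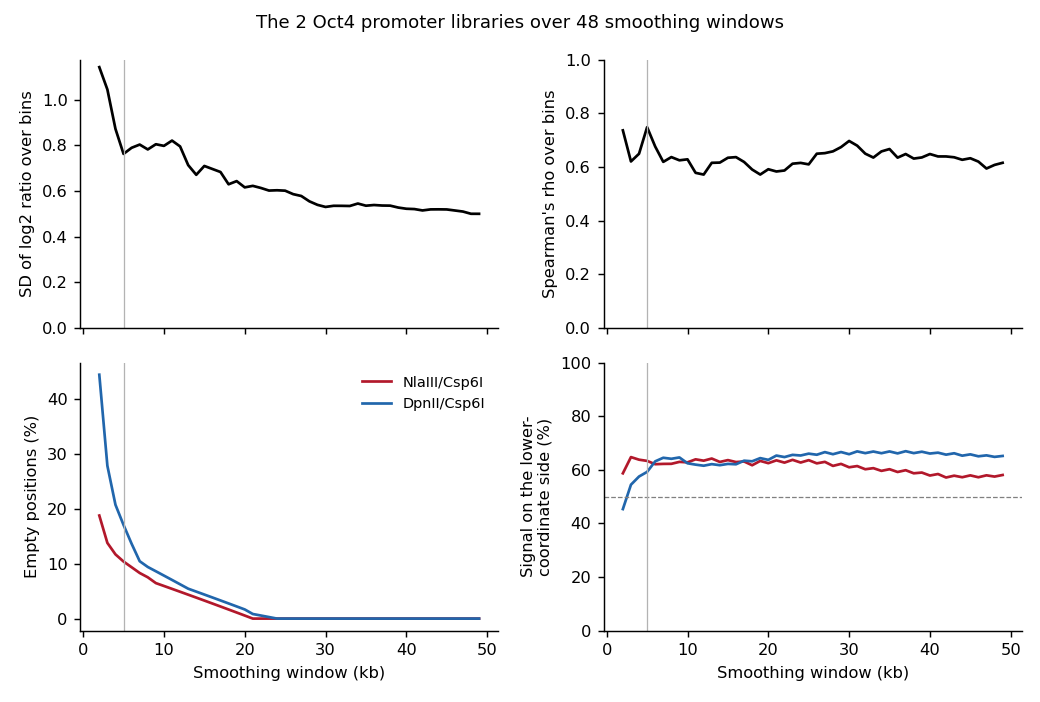
Measures by smoothing window in kb (x): SD of the log2 ratio and Spearman's rho over the 66 bins filled in every window (top), and the percentage of empty positions and of signal on the lower-coordinate side per library (bottom). The grey line marks 5 kb. The SD is 1.14 at 2 kb and 0.50 at 49 kb, rho stays between 0.57 and 0.75, and the side shares of the libraries cross.

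More of the signal lay on the lower-coordinate side with both pairs in the 5 kb window. Over the 152.75 kb covered on both sides, that side took 63.3% with NlaIII/Csp6I and 59.2% with DpnII/Csp6I. Over all windows the share ran from 57.1% to 64.7% with NlaIII/Csp6I and from 45.4% to 66.9% with DpnII/Csp6I. It was larger with NlaIII/Csp6I in 11 of 48 windows. The order of the libraries in this share thus depended on the window. Within 30 kb of the viewpoint lay 53.1% of the signal with NlaIII/Csp6I and 56.9% with DpnII/Csp6I.

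Some differences held their direction at every scale, and none of the bins past 2-fold at 5 kb was among them. Of the 66 bins, 5 were lower with NlaIII/Csp6I in all 48 windows and 6 were higher in all. The other 55, with all 11 bins of this set that were past 2-fold at 5 kb, changed direction or were equal in at least 1 window. The windows overlap, so they are not independent readings. Of those 11 bins, that at 23.25 kb came closest to a constant direction on the higher-coordinate side. It was lower with NlaIII/Csp6I in 47 of 48 windows, with log2 ratios from -1.61 to 0.0018, and past 2-fold in 17, among them the 10 kb window with -1.57 and the 20 kb window with -1.13. The bin at -91.75 kb was higher with NlaIII/Csp6I in 47 windows and equal in 1, and DpnII/Csp6I was listed at 0 there in 5. The bins lower in all windows included the pair just outside the peak, at -36.75 and -31.75 kb, singled out here after their values were seen. At -36.75 kb the log2 ratio ran from -1.79 to -0.52, past 2-fold in 37 windows. At -31.75 kb it ran from -1.68 to -0.36, past 2-fold in 25 windows. The adjoining bin at -41.75 kb was lower in 46 windows and higher in 2. It was past 2-fold, in either direction, in 41. On the other side, 28.25 kb was lower in all windows, from -0.98 to -0.49. Bins higher in all windows lay from 83.25 to 128.25 kb, where both libraries were below their means at 5 kb. Those at 88.25, 98.25 and 103.25 kb were past 2-fold in 24, 18 and 14 windows, with log2 ratios up to 1.12. The others stayed within 2-fold in every window. The part of the recurring low values in this constant direction was not tested.

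**Figure D5:**
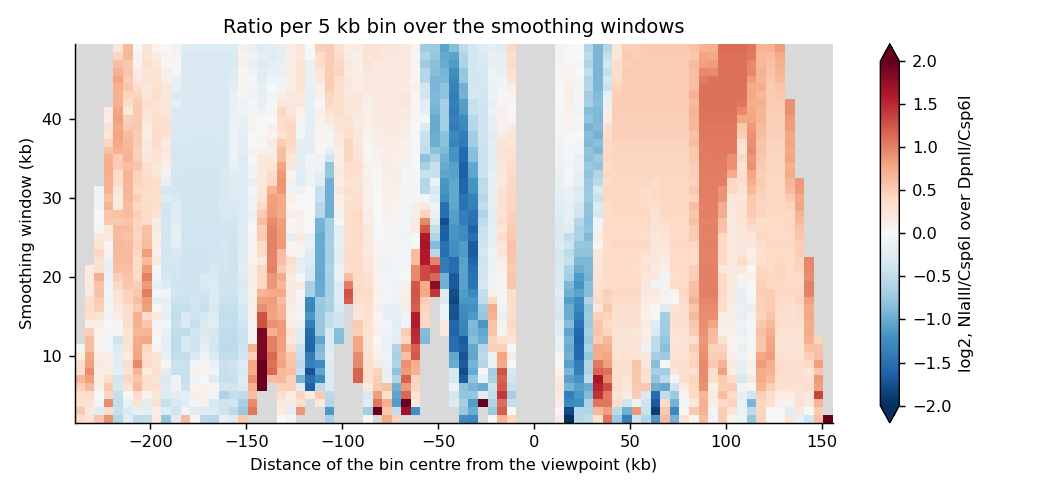
Log2 ratio of NlaIII/Csp6I over DpnII/Csp6I per 5 kb bin (colour) by distance from the viewpoint in kb (x) and smoothing window in kb (y). Grey marks bins left out, unfilled or listed at 0 in either library. The blue column at -36.75 and -31.75 kb runs through all 48 windows, while the red spots at -16.75 and 33.25 kb fade above about 10 kb.

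The ratios at -16.75 and 18.25 kb were smaller in size with 10 and 20 kb of smoothing than with 5 kb. At -16.75 kb the log2 ratio was 0.66 in the 2 kb window, 1.42 with 5 kb, 0.78 with 10 kb and 0.02 with 20 kb of smoothing. At -21.75 kb it stayed within 2-fold in all 48 windows. The log2 ratio at 18.25 kb was -1.39 in the 5 kb window, -0.96 with 10 kb and -0.68 with 20 kb of smoothing. The ratio at 33.25 kb was 0.30 at 2 kb and 1.45 at 5 kb, and it was negative in 24 windows.

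A shift of one profile along the chromosome was tried to see whether the offsets between summits applied throughout. Over the 216 positions from 22 to 130 kb on both sides, rho between the libraries was 0.56 without a shift. It was 0.59 with the DpnII/Csp6I profile moved by -1 kb, the highest of the shifts from -12 to 12 kb, and 0.32 with a shift of 5 kb. On the lower-coordinate side rho was 0.62 without a shift and 0.69 at -1 kb. On the higher-coordinate side it was 0.40 without a shift and highest at 1 kb, at 0.45. These correlations are across smoothed positions that share their fragments, and are given as descriptions.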

How the data were processed

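The deposited files hold a signal, per the file names a normalized, smoothed median made by the authors, in 48 windows of 2 to 49 kb with 3 columns each (middle, higher, lower). Per the submitters' processing notes, coordinates are mm9. No source used here names the aligner, the filters, the read numbers or which quantiles the outer columns hold, so no counting interval was computed. The size of each window was taken from the positions left unfilled at both ends. Bins were averaged, scaled and compared as log2 ratios with a pseudocount of 0.1; the limit was 2-fold. O/E was the mean within 5 kb of a position, with 10% of the library's mean added to observed and expected. Maxima lay at least 20 kb apart, in the library's top 25%. Named bins were the 5 largest ratios past the limit per direction, at least 10 kb apart, and the bins nearest the viewpoint; other bins past the limit are named beside them. The steps were tested on simulated profiles. Python 3.11.15, numpy 2.4.6 and scikit-learn 1.9.0 were used. Alternatives changed window, scaling, pseudocount, bins, columns and decay. The libraries, bins and rules were chosen with earlier results of these data known. Shifts, per-window directions and peak edges, and their window ranges were added after the data were seen.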

Additional observations from a re-analysis of the deposited data

How the results depend on the processing

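Depth is unknown, each enzyme pair had 1 library, and most positions held 3 recurring values, so no result has an error. The cause of the differences below was not tested. The share of bins past 2-fold, 16.2%, was 6.76% with a pseudocount of 50%, 33.8% in the lower column, 25.7% in the higher column, 29.7% with a limit of 1.5-fold and 4.05% with 3-fold. It stayed within 1.5 times in the other 12 settings. The direction was less stable than the share. NlaIII/Csp6I was higher in 4 bins and lower in 7 with the 10 kb window, 6 and 8 when scaled by the median, and 7 and 12 in the higher column. The counts were equal with the 20 kb window and with bins of 10 kb. In the remaining settings more bins were higher with NlaIII/Csp6I, as in the lower column with 20 against 5. The SD of the log2 ratio, 0.75, was 1.14 with the 2 kb window, 1.24 and 0.47 with pseudocounts of 1% and 50%, and 1.28 in the lower column. The lower-side share was 56.7% for NlaIII/Csp6I with 20 kb left out and 45.4% for DpnII/Csp6I with the 2 kb window. Bands lay apart at 30.9%, 3.50% and 2.22% of positions with the 2, 10 and 20 kb windows. Shared maxima numbered 2 to 4. The sign of the log2 ratio turned with the 20 kb window at -46.75 kb (-0.95) and 63.25 kb (0.21), in the lower column at -16.75 kb (-0.12), and at -71.75 kb with the 2 kb window (0.47) and in the higher column (0.22). The log2 O/E turned with the 20 kb window at 35.576 Mb (-0.000897) and 35.682 Mb (-0.17) for NlaIII/Csp6I, and with the 2 kb window at 35.572 Mb (-0.25) for DpnII/Csp6I. For the strongest shared pair it was 1.16 at 35.623 Mb for NlaIII/Csp6I and 1.03 at 35.619 Mb for DpnII/Csp6I. With the decay fitted on each side alone these were 0.39 and 0.53, and with a power-law decay 2.97 and 2.63. No paired analysis was possible because each enzyme pair had 1 library.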
